A study of Mus musculus with 20 samples.

Results

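The 10 genes described here encode enzymes of serine synthesis (Phgdh, Psat1, Psph), of the folate one-carbon cycle (Shmt1, Shmt2, Mthfd1, Mthfd2) and of the methionine cycle (Mat2a, Mat2b, Ahcy). They are 10 of the 54838 genes counted in mouse ovaries, and they were taken by name through their Ensembl identifiers. All 10 had counts in every library and passed the filter on low counts in each comparison. The list was chosen by the measured values of Phgdh and Mat2a, which differed between the mouse lines in these libraries, so differences between lines are given for these genes as a description without a test. The comparisons between stages of the estrous cycle were tested. For Phgdh and Mat2a, the stage tests use the same libraries as the line differences that chose the list. Their p-values are therefore not independent of that choice.

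The ovaries came from females aged 77 days of the Dummerstorf mice. FL1 is a line selected over many generations for high fertility, and ctrl (genotype WT in the labels) is an unselected line from the same outbred founders. Both were taken in estrus, when the vaginal smear held cornified cells only, and in diestrus, when it held leucocytes only, with 5 animals in each of the 4 groups. No group was treated, fat and oviduct were dissected away, and the lines are outbred, so animals of 1 line differ in genotype. With 1 selected and 1 unselected line, effects of selection and of drift cannot be told apart.

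Libraries held between 5991223 and 10352718 counts, and 3.09% to 6.90% of counts were mitochondrial. Ovarian markers were present in every library: the 9 granulosa cell markers summed to 1240 to 3699 CPM (counts brought to a shared depth of the 20 libraries by TMM), and the 9 oocyte markers to 158 to 565 CPM. The 4 oviduct markers reached at most 4.93 CPM. The 5 fat markers summed to 64.5 to 138 CPM in FL1 and 27.4 to 137 CPM in ctrl in estrus. In diestrus their sums were 25.7 to 57.5 CPM in FL1 and 21.3 to 51.6 CPM in ctrl. Replicate 5 of ctrl in estrus stood apart, with a mean distance on the log2 CPM scale of 101 to the other libraries of its group, against 77.7 to 82.7 for those. It had the lowest granulosa sum (1240 CPM, with 2163 to 3187 in the other ctrl libraries in estrus) and was the lowest library of its group for 6 of the 10 enzymes and the highest for 3. Its luteal marker sum (39010 CPM, others 15962 to 30712) and theca sum (16344 CPM, others 8417 to 13215) were the highest of its group. So was its fat sum (137 CPM, others 27.4 to 46.3), while its proliferation sum was the lowest (288 CPM, others 504 to 591). For the enzymes that differed between groups, the values without it are given as well.

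Cells make serine from a glycolytic intermediate in 3 steps. Phgdh oxidizes 3-phosphoglycerate, Psat1 transfers an amino group and Psph removes the phosphate. Shmt1 in the cytosol and Shmt2 in mitochondria pass a carbon of serine to tetrahydrofolate and release glycine. Mthfd1 (cytosol) and Mthfd2 (mitochondria) then interconvert the folate-bound carbon units used for purines, thymidylate and the remethylation of homocysteine. Mat2a joins methionine and ATP into S-adenosylmethionine, the methyl donor of the cell, Mat2b is its regulatory subunit, and Ahcy cleaves the S-adenosylhomocysteine left after methyl transfer. In the ovary, granulosa cells proliferate and oocytes store methyl donors and folates during follicle growth.

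Mat2a mRNA is known for a control of its own. The methyltransferase Mettl16 methylates an adenosine within hairpins of its 3′ end, and the splicing and stability of the mRNA follow the supply of S-adenosylmethionine. The stretches that carry this motif are shown because Mat2a had the most abundant mRNA of the 10 and differed between lines. In the 1497 bases of the 3′ UTR of transcript Mat2a-201, a search of the mRNA strand for TACAGAGAA and TACAGAAAA found 6 matches. Of 21018 mouse genes with an annotated 3′ UTR, 951 (4.52%) had at least 1 match, and only Mat2a had as many as 6. The motif searched is the one known from Mat2a mRNA itself, so nothing is read from this rank. Each line gives 1 match (capitals) with the bases around it, from GENCODE M21 on GRCm38, minus strand.

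Match 1, chr6:72434235-72434263: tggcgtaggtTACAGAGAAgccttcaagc
Match 2, chr6:72433451-72433479: ccttgtgataTACAGAGAAgtcacagggc
Match 3, chr6:72433272-72433300: ctggtgtagcTACAGAGAAaccagcttcc
Match 4, chr6:72433157-72433185: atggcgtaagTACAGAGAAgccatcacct
Match 5, chr6:72433046-72433074: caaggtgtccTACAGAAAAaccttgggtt
Match 6, chr6:72432938-72432966: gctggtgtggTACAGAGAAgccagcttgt

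The promoters of Phgdh, Psat1, Mthfd2 and Mat2a are shown because these 4 genes had the largest stage differences of the list in FL1. All 10 genes matched the RefSeq promoter table (GRCm38.p6), which gives 250 bases before and 50 after the start site, and both strands were searched. Psat1 has 2 listed start sites, of which 1 is shown. The amino acid response element TGATGNAA, bound by ATF4 dimers, was in none of the 10 windows and in 3.97% of all 32851 promoters. The E-box CACGTG was also in none, and in 7.15% of all. The CCAAT box was in 9 of the 10 (not in Shmt2) and in 37.4% of all promoters. The 250 bases before the start site follow, with CCAAT or its complement ATTGG in capitals where matched, each on the minus strand of the chromosome.

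Phgdh, chr3:98339970-98340219: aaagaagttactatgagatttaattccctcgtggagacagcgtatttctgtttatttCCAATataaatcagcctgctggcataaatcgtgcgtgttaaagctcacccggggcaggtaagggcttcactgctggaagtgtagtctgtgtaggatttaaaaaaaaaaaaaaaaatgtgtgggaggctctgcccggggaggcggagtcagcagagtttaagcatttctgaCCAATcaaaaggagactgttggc
Psat1, chr19:15925060-15925309: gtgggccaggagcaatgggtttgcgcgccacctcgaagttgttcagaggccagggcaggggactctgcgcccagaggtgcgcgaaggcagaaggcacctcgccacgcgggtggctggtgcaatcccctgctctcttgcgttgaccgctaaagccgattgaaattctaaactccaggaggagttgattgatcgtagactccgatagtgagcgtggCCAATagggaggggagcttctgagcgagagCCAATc
Mthfd2, chr6:83317605-83317854: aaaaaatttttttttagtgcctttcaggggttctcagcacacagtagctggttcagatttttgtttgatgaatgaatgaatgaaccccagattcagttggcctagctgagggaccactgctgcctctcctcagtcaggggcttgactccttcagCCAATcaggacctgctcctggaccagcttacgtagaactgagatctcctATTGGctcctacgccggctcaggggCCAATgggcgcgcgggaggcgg
Mat2a, chr6:72439557-72439806: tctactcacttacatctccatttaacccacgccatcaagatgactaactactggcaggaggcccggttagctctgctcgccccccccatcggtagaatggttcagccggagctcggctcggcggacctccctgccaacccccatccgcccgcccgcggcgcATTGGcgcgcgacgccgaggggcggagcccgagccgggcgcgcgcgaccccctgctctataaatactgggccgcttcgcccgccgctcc

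The levels of the 10 mRNAs ranged widely. The libraries count 1 end of each transcript, so CPM values were compared between genes without dividing by length. Over the 20 libraries, Mat2a was highest at 199.98 ± 66.3 CPM (mean ± SD), above 94.5% of the tested genes. Mat2b followed at 73.1 ± 10.6 CPM and Mthfd2 at 59.4 ± 20.2 CPM, with ranges that overlapped. Mthfd1 (40.0 ± 4.26 CPM) and Shmt2 (38.2 ± 7.002 CPM) did not differ beyond their spread, nor did Shmt1 (22.1 ± 5.21 CPM), Psat1 (21.8 ± 7.56 CPM) and Psph (18.7 ± 4.00 CPM). Ahcy stood at 12.6 ± 3.53 CPM. Phgdh, the first enzyme of serine synthesis, was lowest at 3.68 ± 2.36 CPM, above 17.6% of the tested genes, with 2 to 73 counts per library.

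**Figure D1:**
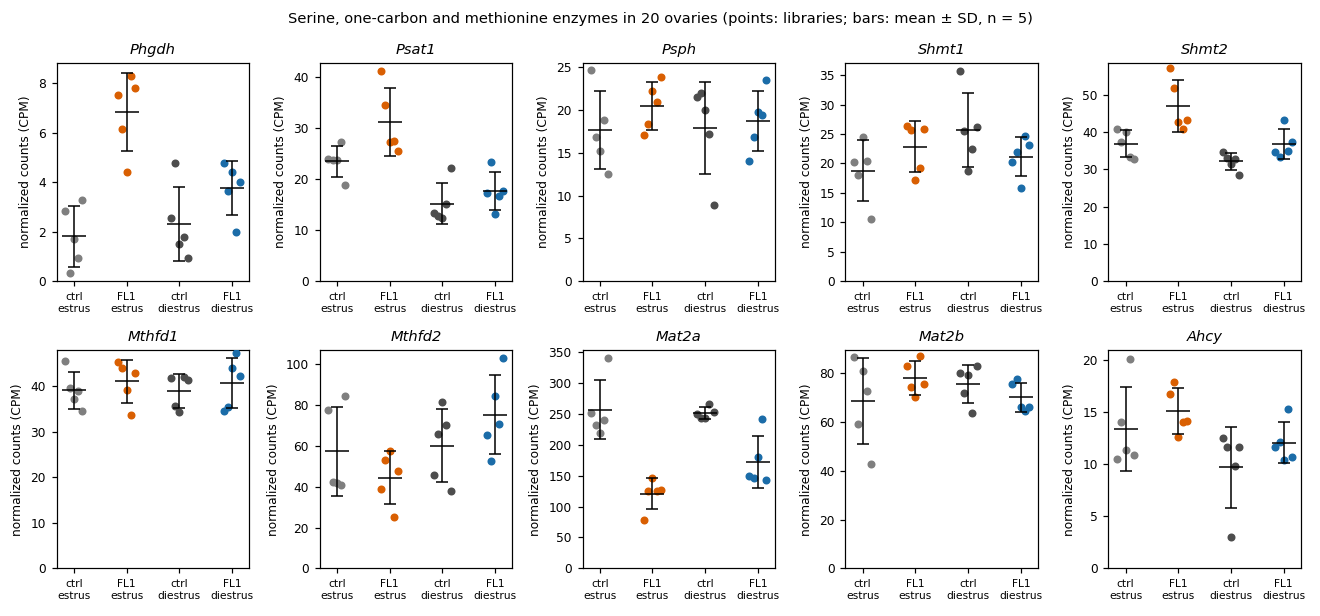
Normalized counts (CPM, linear axes from 0) of the 10 enzymes in ctrl and FL1 ovaries in estrus and diestrus. Points are libraries and bars are means ± SD of 5. For Mat2a all FL1 points lie below all ctrl points of the same stage, and for Phgdh all FL1 points in estrus lie above the ctrl points in estrus.

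Phgdh (ENSMUSG00000053398, chr3:98313170-98339990) was at 2.82, 0.331, 1.70, 0.943 and 3.27 CPM in the ctrl ovaries in estrus and at 7.50, 6.13, 4.41, 8.29 and 7.82 CPM in those of FL1. The groups did not overlap, and the fitted difference between lines was a log2 fold change (log2FC, FL1 minus ctrl) of 1.91 ± 0.43 (SE), or 3.76-fold. In diestrus the ctrl values were 2.56, 4.79, 1.499, 1.80 and 0.922 CPM and the FL1 values 4.76, 3.66, 4.41, 1.99 and 4.02 CPM. These overlapped, with a log2FC of 0.67 ± 0.41 that ran from 0.48 to 1.11 with 1 library left out, the 1.11 without replicate 2 of ctrl in diestrus. Without replicate 5 of ctrl in estrus, the difference in estrus was 2.22.

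Between the stages, Phgdh was higher in estrus than in diestrus in FL1, with a log2FC (estrus minus diestrus) of 0.86 ± 0.28 and an adjusted p of 0.0471, and replicates 1 and 3 of diestrus (4.76 and 4.413 CPM) lay above the lowest of estrus (4.405 CPM). In ctrl the difference was -0.37 ± 0.56 (adjusted p = 0.820). The call in FL1 was close to the threshold, and it is not independent of how the list was chosen. It was lost when replicate 1, 2, 4 or 5 of FL1 in estrus or replicate 2, 3, 4 or 5 of FL1 in diestrus was left out, with log2FC between 0.69 and 0.92 in those fits.

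Part of the sequence at the annotated ends of Phgdh transcripts is shared with other genes, and whether counted reads fell there was not tested. The last 300 bases of the annotated Phgdh transcripts, pooled, shared at least 50 words of 31 bases with 16 other genes, nearly all processed pseudogenes. Of these, 4 had any count, 57 counts in all against 544 on Phgdh itself. Gm9347 on chromosome 7 (136810909 to 136812515) held 43 of the 57. It had 0, 6, 15, 8 and 3 counts in ctrl in estrus and 4, 0, 0, 6 and 1 in ctrl in diestrus, and 0 in all 10 FL1 libraries, where 3 counts correspond to at most 0.501 CPM. In 2 ctrl libraries in estrus, the copies (7 and 12 counts) held more than Phgdh (2 and 10 counts), and in another they held 15 against 13.

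With the counts of these copies added, an alternative chosen after seeing the data, the difference between lines in estrus was 1.32 ± 0.30, against 1.91 without them, and in diestrus 0.48. The stage difference in FL1 was 0.88 with an adjusted p of 0.0379, and that in ctrl turned from -0.37 to 0.04 (adjusted p = 0.982). Whether reads were placed differently in the lines was not tested.

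**Figure D2:**
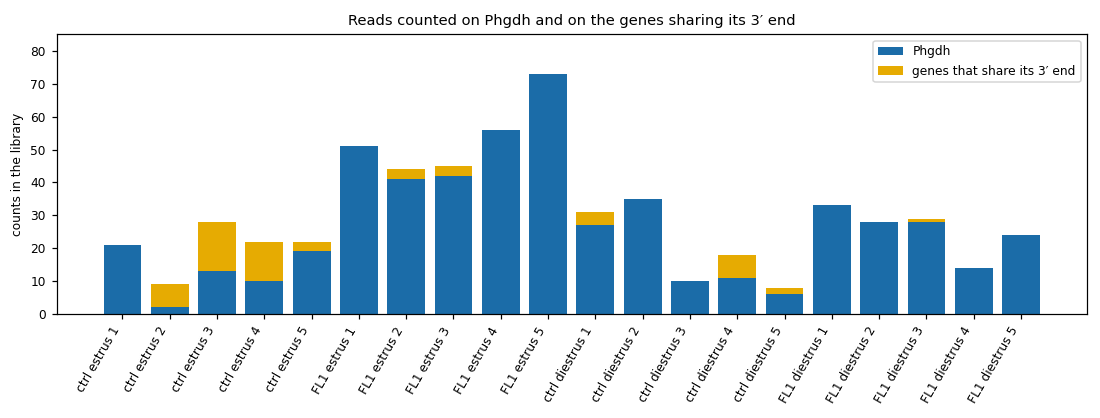
Raw counts per library on Phgdh (blue) and on the 16 genes that share sequence with its annotated transcript ends (yellow, stacked), for the 20 libraries. The copies hold 0 to 15 counts per library, with the 4 highest values in ctrl libraries.

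Psat1 (ENSMUSG00000024640, chr19:15904678-15947337), the aminotransferase of the pathway, showed a clear stage difference in FL1. FL1 ovaries were at 41.2, 34.4, 27.3, 27.4 and 25.4 CPM in estrus and at 17.3, 23.4, 13.1, 16.6 and 17.6 CPM in diestrus. The stages did not overlap, and Psat1 was higher in estrus with a log2FC of 0.82 ± 0.17 (adjusted p = 0.00343), a call kept with any 1 library left out. In ctrl, the values were 23.9, 23.7, 23.6, 27.2 and 18.8 CPM in estrus and 13.3, 12.9, 12.4, 15.0 and 22.1 CPM in diestrus.

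The ctrl stages overlapped only through replicate 5 of each, and the log2FC of 0.63 ± 0.18 did not pass the threshold (adjusted p = 0.0815). Without replicate 5 of ctrl in estrus it was 0.70 (adjusted p = 0.0470), and without replicate 5 of ctrl in diestrus 0.80 (adjusted p = 0.0158). The stage difference of FL1 exceeded that of ctrl by 0.18 ± 0.25 (adjusted p = 0.824). Between the lines, the log2FC of Psat1 was 0.40 ± 0.16 in estrus and 0.22 ± 0.19 in diestrus, with overlapping groups, and 0.34 in estrus without replicate 5 of ctrl.

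Psph (ENSMUSG00000029446, chr5:129765558-129787449), the phosphatase that completes serine synthesis, ranged from 8.91 to 24.7 CPM. Its log2FC was 0.21 ± 0.18 between the lines in estrus, 0.05 ± 0.22 in diestrus, and -0.03 ± 0.24 and 0.14 ± 0.15 between stages in ctrl and FL1 (adjusted p = 0.978 and 0.581). The 95% intervals of the stage differences were -0.50 to 0.44 and -0.16 to 0.44. At its 5′ end, its annotated span overlaps that of the chaperonin gene Cct6a on the opposite strand (221 to 336 CPM).

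Of the folate cycle enzymes on the list, the mitochondrial Shmt2 and Mthfd2 passed the test between stages in FL1, in opposite directions. The cytosolic Shmt1 and Mthfd1 did not pass, and a difference between the compartments was not tested. Shmt2 (ENSMUSG00000025403, chr10:127517123-127522444) was at 57.1, 51.7, 42.7, 40.9 and 43.2 CPM in FL1 in estrus and at 34.7, 33.2, 43.3, 34.9 and 37.3 CPM in diestrus. It was higher in estrus by 0.36 ± 0.12 (adjusted p = 0.0467), with replicate 3 of diestrus inside the range of estrus. The call was lost without replicate 1, 2 or 5 of FL1 in estrus or replicate 1, 2, 4 or 5 of FL1 in diestrus (log2FC of 0.29 to 0.39 in these fits). In ctrl the stage difference was 0.20 ± 0.11 (adjusted p = 0.444). Between lines, Shmt2 in estrus was at 40.8, 37.4, 40.0, 33.4 and 32.9 CPM in ctrl, all below the FL1 values. The highest of these lay just under the lowest of FL1 (40.9 CPM). The log2FC between lines was 0.35 ± 0.12 in estrus (0.32 without replicate 5 of ctrl) and 0.18 ± 0.10 in diestrus.

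Shmt1 (ENSMUSG00000020534, chr11:60788104-60811718), the cytosolic form, ranged from 10.5 to 35.8 CPM. Its log2FC between stages was -0.45 ± 0.22 in ctrl (adjusted p = 0.343) and 0.11 ± 0.16 in FL1 (adjusted p = 0.685), and between lines 0.27 ± 0.21 in estrus and -0.29 ± 0.17 in diestrus. The ratio of Shmt2 to Shmt1 had medians of 2.01 and 2.12 in ctrl and FL1 in estrus and of 1.30 and 1.62 in diestrus, and its ranges overlapped between all groups. The 3′ end of Shmt1 overlaps that of Smcr8 on the opposite strand (9.62 to 16.1 CPM). Likewise, the 3′ end of Shmt2 overlaps that of Ndufa4l2 on the opposite strand (2.45 to 7.94 CPM).

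Mthfd2 (ENSMUSG00000005667, chr6:83305691-83325908), the mitochondrial dehydrogenase and cyclohydrolase, was at 25.3 to 103 CPM over the 20 libraries. FL1 ovaries were at 38.8, 52.9, 57.7, 25.3 and 47.9 CPM in estrus and at 65.6, 52.5, 84.5, 70.7 and 103 CPM in diestrus. Mthfd2 was lower in estrus by a log2FC of -0.75 ± 0.20 (adjusted p = 0.0158), with replicates 2 and 3 of estrus above the lowest library of diestrus, and the call held with any 1 library left out. In ctrl the values were 77.5, 42.4, 41.8, 40.8 and 84.7 CPM in estrus and 45.6, 65.8, 81.7, 70.1 and 37.8 CPM in diestrus, spread over the same range in both stages, with a log2FC of -0.07 ± 0.26 (adjusted p = 0.943, 95% interval -0.57 to 0.44).

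The direction of Mthfd2 was thus opposite to that of Shmt2 in FL1. Between lines its log2FC was -0.37 ± 0.25 in estrus and 0.31 ± 0.21 in diestrus, with overlapping groups in both. Without replicate 5 of ctrl in estrus, the highest of its group, the difference in estrus was -0.18. Mthfd1 (ENSMUSG00000021048, chr12:76255298-76319803), the cytosolic trifunctional enzyme, was at 33.8 to 47.3 CPM. Its log2FC lay between 0.00 and 0.06 in all 4 comparisons, with 95% intervals of -0.22 to 0.23 between stages in ctrl and -0.21 to 0.24 in FL1.

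**Figure D3:**
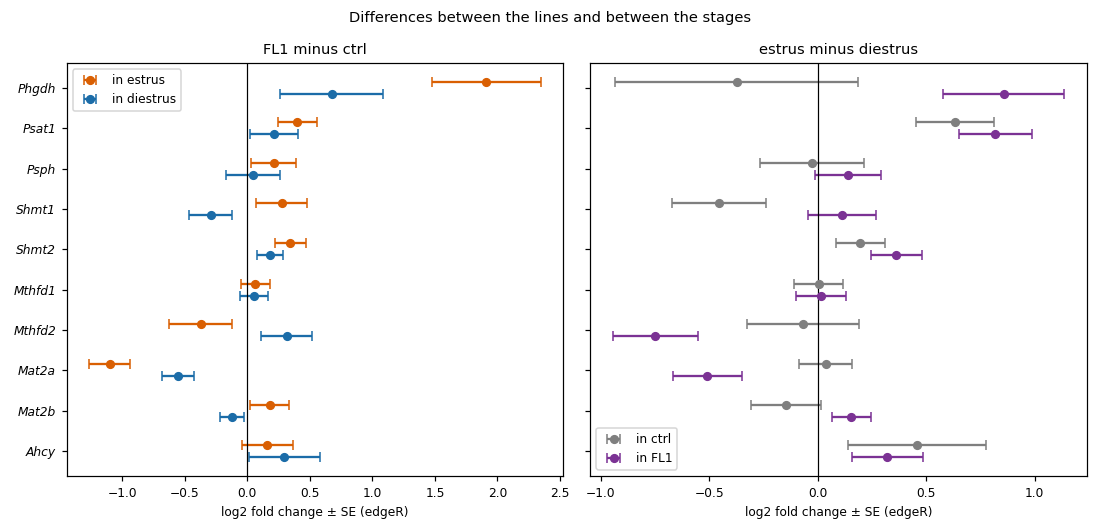
Log2 fold changes ± SE from edgeR for the 10 enzymes, left FL1 minus ctrl in estrus and diestrus, right estrus minus diestrus in ctrl and FL1. In FL1, Phgdh, Psat1 and Shmt2 lie right of 0 (0.86, 0.82 and 0.36) and Mthfd2 and Mat2a left of it (-0.75 and -0.51).

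In the methionine cycle, Mat2a (ENSMUSG00000053907, chr6:72432799-72439558) was lower in FL1 in both stages. In estrus the ctrl ovaries were at 252, 232, 219, 241 and 339.8 CPM and the FL1 ovaries at 78.5, 125, 147, 126 and 127 CPM. The groups were far apart, with a log2FC of -1.10 ± 0.16, or 2.14-fold lower in FL1, and of -0.96 without replicate 5 of ctrl, the highest library. In diestrus the ctrl values were 250.02, 243, 242, 266 and 253 CPM and the FL1 values 149, 147, 179, 242 and 142 CPM. Here the groups met, since replicate 4 of FL1 (241.9 CPM) lay just under the lowest ctrl library (242.4 CPM), and the log2FC was -0.55 ± 0.13, or 1.47-fold lower.

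Within ctrl, the stages of Mat2a overlapped, with a log2FC of 0.04 ± 0.12 (adjusted p = 0.933, 95% interval -0.21 to 0.28), and the value turned to -0.10 without replicate 5 of ctrl in estrus. Within FL1, Mat2a was lower in estrus, with a log2FC of -0.51 ± 0.16 (adjusted p = 0.0378), a call not independent of how the list was chosen. That call was lost without replicate 1, 2, 4 or 5 of FL1 in estrus or replicate 3 or 4 of FL1 in diestrus, with a log2FC of -0.38 without the lowest library of estrus and -0.36 without the highest of diestrus. The difference between lines was larger in estrus by -0.55 ± 0.22, which did not pass the threshold over all genes (adjusted p = 0.324).

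Mat2b (ENSMUSG00000042032, chr11:40679314-40695203), the regulatory subunit, passed no test. It was at 42.9 to 87.3 CPM, with a log2FC between lines of 0.18 ± 0.16 in estrus and -0.12 ± 0.10 in diestrus, and between stages of -0.14 ± 0.16 in ctrl (adjusted p = 0.751) and 0.15 ± 0.09 in FL1 (adjusted p = 0.270). The ratio of Mat2a to Mat2b mRNA ran from 2.71 over a median of 3.31 to 7.92 in ctrl and from 0.945 over 1.68 to 2.09 in FL1 in estrus. In diestrus it ran from 3.03 over 3.11 to 4.17 in ctrl and from 1.89 over 2.14 to 3.74 in FL1. The FL1 ovary at 0.945 was the only one in which Mat2a lay below Mat2b.

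Ahcy (ENSMUSG00000027597, chr2:155059310-155074497) ranged from 3.00 to 20.1 CPM, and its log2FC was 0.16 ± 0.20 and 0.30 ± 0.29 between lines in estrus and diestrus. Between stages it was 0.46 ± 0.32 in ctrl (adjusted p = 0.556) and 0.32 ± 0.16 in FL1 (adjusted p = 0.202). Of 3 genes that share sequence with its annotated transcript ends, Gm4737 had 20 counts over all libraries against 1892 on Ahcy. The 1 copy of Mat2a (Gm9523) and the 1 of Shmt2 (Gm15544) had 0 counts in all libraries.

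Counted together, 5 of the 10 enzymes passed the test between stages in FL1 (3 higher and 2 lower in estrus), where 15.9% of all 13350 tested genes did so (7.42% higher, 8.49% lower). Phgdh and Mat2a are among the 5, and their line differences, which used the same FL1 libraries, chose the list. Nothing is therefore read from the excess over all genes, and 2 to 5 enzymes passed with 1 library left out. In ctrl none passed at an adjusted p of 0.05, where 2.85% of all genes did. At an unadjusted p of 0.05 in the same edgeR fit it was 1 enzyme (beside 15.4% of all genes), Psat1, which DESeq2 and limma-voom also called. No enzyme passed the test of the line-by-stage interaction, which called 8 of 14154 genes (0.0565%). At an unadjusted p it was 1, Mat2a (beside 11.7% of all genes), and DESeq2 and limma-voom called none. A stage difference particular to FL1 was therefore not shown for any of the 10.

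Between lines, 2 of the 10 were past the threshold in estrus (Phgdh and Mat2a, beside 2.33% of all genes) and 1 in diestrus (Mat2a, beside 4.11%). Nothing is read from these counts, since the lines' difference chose the genes. The groups did not overlap for 3 enzymes in estrus (Phgdh, Shmt2 and Mat2a, beside 4.85% of all genes), for 1 in diestrus (Mat2a, 5.4%), for none between stages in ctrl (4.56%) and for 1 in FL1 (Psat1, 12.1%). The median log2FC of the 10 was 0.20 and 0.12 between lines in estrus and diestrus and -0.01 and 0.15 between stages in ctrl and FL1, with medians of all tested genes between -0.01 and 0.01. The line and stage comparisons share libraries, so their values are not independent.

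The line comparison was also read for the genes next to Mat2a and Phgdh. Around Mat2a, the 10 nearest tested genes (chr6:72355447-72617000) had log2FC between lines of -0.15 to 0.42 in estrus and -0.04 to 0.64 in diestrus, none as low as Mat2a. In each stage 1 of them passed the test, both higher in FL1. Retsat, a retinol saturase, was higher in estrus (0.42 ± 0.10, adjusted p = 0.0412), a call kept in 1 of the 10 fits that leave out 1 library, with 0.38 to 0.45 in these fits. In diestrus the log2FC of Retsat was 0.57 ± 0.17 (adjusted p = 0.0736). Tmem150a, a membrane protein gene, was higher in diestrus (0.64 ± 0.14, adjusted p = 0.0179), with 0.18 ± 0.16 in estrus (adjusted p = 0.664).

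Particl, a transcript that starts within Mat2a on the opposite strand, was at 4.18 to 12.9 CPM. Its log2FC was 0.41 ± 0.25 in estrus and 0.21 ± 0.22 in diestrus, neither past the threshold. Around Phgdh, the 10 nearest tested genes (chr3:97658193-100162407) lay between -0.65 and 0.36 in estrus and reached down to -0.58 in diestrus, and none passed the test.

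**Figure D4:**
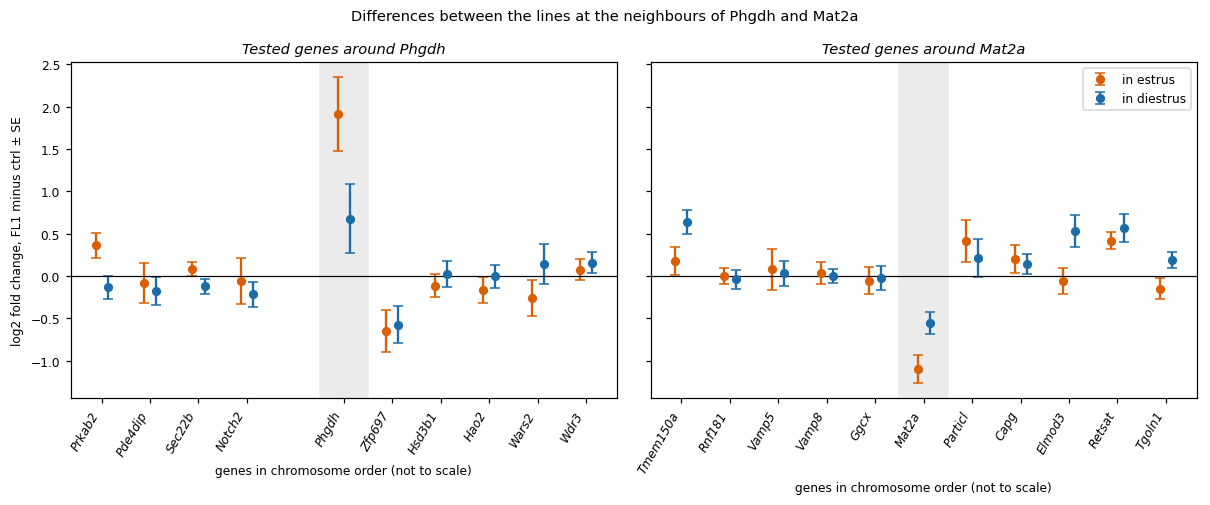
Log2 fold change ± SE, FL1 minus ctrl, of tested genes next to Phgdh (left) and Mat2a (right, both shaded) in chromosome order, without a gene not reported here. Mat2a (-1.10 and -0.55) lies below its neighbours in both stages and Phgdh (1.91 and 0.67) above its own.

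Over all 20 libraries, the gene whose centred log2 CPM lay closest to Mat2a was Fam160b1, with a root mean square difference of 0.23 against 0.51 for the variation of Mat2a itself. Its means were 74.5 and 39.0 CPM in ctrl and FL1 in estrus and 76.4 and 55.7 CPM in diestrus. Zbtb38, a zinc finger protein gene (0.30), and Golga3, a Golgi protein gene (0.31), were next of 14153 genes compared. Closest to Phgdh (variation 1.00) were AV099323 (0.54), 9330160F10Rik (0.61) and Rbfox3 (0.63), the first 2 of them with group means under 2.6 CPM.

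The wider pathway was described with 8 lists of 91 further genes, of which 90 were found and 80 to 84 tested. Between stages in FL1, 21 of 81 passed the test (25.9%, beside 15.9% of all genes), 14 higher and 7 lower in estrus. The lists were chosen with earlier results of these data known, so nothing is read from this excess. In ctrl 2 of 81 passed (2.47%, beside 2.85% of all genes), both higher in estrus. Between lines, 1 of 82 passed in estrus and 3 of 80 in diestrus, beside 2.33% and 4.11% of all genes. None of 84 passed the interaction test, beside 0.0565% of all genes.

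Serine and glycine handling had 4 of 11 genes higher in estrus in FL1 and none lower. Slc1a5, a carrier of neutral amino acids such as glutamine and serine, was at 15.1 to 29.3 CPM in estrus and at 5.54 to 12.8 CPM in diestrus (1.28 ± 0.24, adjusted p = 0.00158). It was also higher in estrus in ctrl, at 19.8 to 25.7 CPM against 9.53 to 18.1 CPM (0.78 ± 0.18, adjusted p = 0.0405), a call kept in only 1 of the 10 fits without 1 library and lost at 0.71 without replicate 5 of ctrl in estrus. The other 3 in FL1, kept in 10, 3 and 9 of those fits, were the glycine transporter Slc6a9 (0.52 ± 0.13), the carrier Slc38a2 (0.24 ± 0.08) and Gcsh, a protein of the glycine cleavage system (0.38 ± 0.10).

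Among 8 genes of folate uptake and retention, 3 were higher and 1 lower in estrus in FL1. Folr1, a folate receptor, was at 67.3 to 91.6 CPM in estrus and 141 to 198 CPM in diestrus, without overlap (-1.01 ± 0.11, adjusted p = 1.77e-05). Folr1 was also higher in FL1 than in ctrl in diestrus, where ctrl was at 48.9 to 113 CPM (1.12 ± 0.18, adjusted p = 0.00296). Folr2, a receptor known from macrophages, was higher in estrus in FL1 (1.84 ± 0.37, adjusted p = 0.00279) at low levels, 3.74 to 7.45 CPM against 0.568 to 2.51 CPM. Ggh, which trims the glutamate tail that holds folate in the cell, was higher in estrus in both lines, by 0.80 ± 0.11 in FL1 (adjusted p = 0.00011) and 0.93 ± 0.17 in ctrl (adjusted p = 0.0137). The folate carrier Slc19a1 was higher by 0.46 ± 0.13 in FL1.

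Of 10 genes of folate use, 1 was higher and 2 were lower in estrus in FL1. Tyms, which makes thymidylate, was at 20.5 to 37.8 CPM in estrus and 12.8 to 21.2 CPM in diestrus (0.84 ± 0.17, adjusted p = 0.00316). Aldh1l1, which releases the carbon unit of formyltetrahydrofolate as carbon dioxide, was at 13.0 to 23.6 CPM in estrus and 27.4 to 76.0 CPM in diestrus (-1.504 ± 0.23, adjusted p = 0.000308). Neither of these passed in ctrl.

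**Figure D5:**
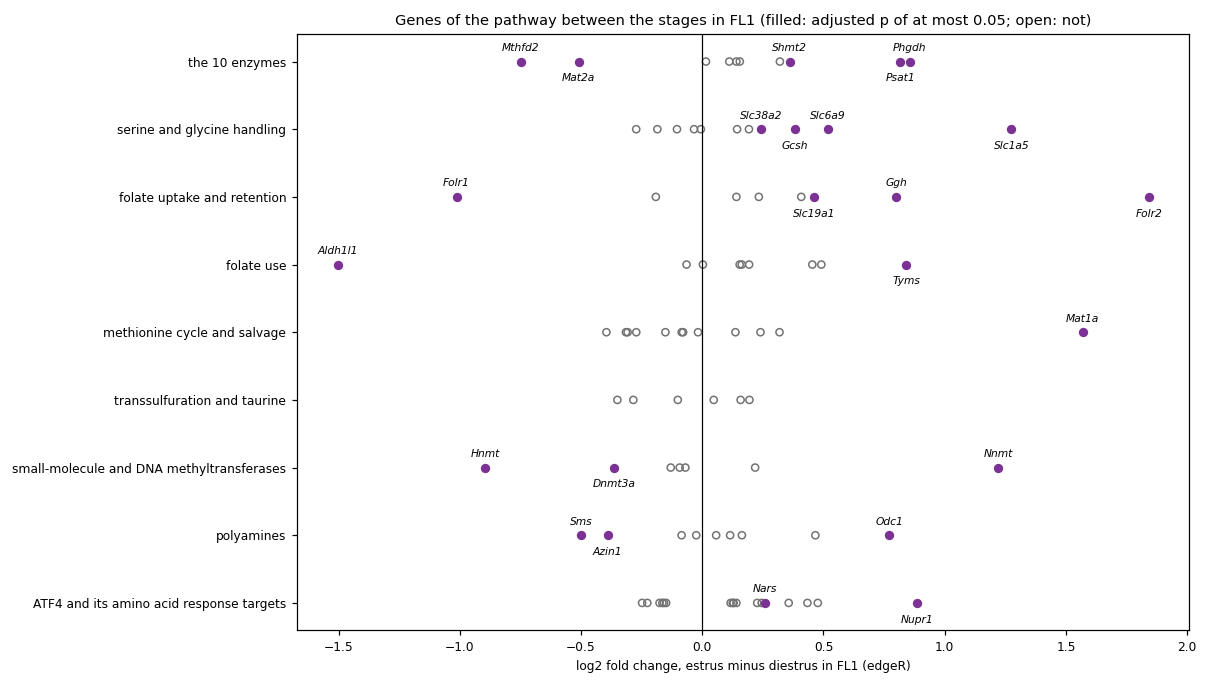
Log2 fold changes (estrus minus diestrus in FL1) of the 10 enzymes and of the tested genes in 8 pathway lists, 1 row for each list. Filled points passed the test (5 of the 10 enzymes), open points did not, and genes not reported here are not drawn.

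Of 12 genes of the methionine cycle and salvage, 1 passed in FL1, the liver form of the synthetase Mat1a (1.57 ± 0.48, adjusted p = 0.0346), at 0 to 6.62 CPM over all libraries. Its call was kept in 5 of the 10 fits that leave out 1 library. Between the lines, Bhmt, which remethylates homocysteine with betaine, was higher in FL1 in estrus, at 9.53 to 25.9 CPM against 1.70 to 8.18 CPM in ctrl (1.89 ± 0.41, adjusted p = 0.0262, kept in 5 of 10 such fits). In diestrus Bhmt was at 11.9 to 27.4 CPM in FL1 and 0.615 to 14.8 CPM in ctrl, and did not pass. Mettl16, the methyltransferase of the Mat2a hairpins, was at 55.0 and 44.2 CPM (means) in ctrl and FL1 in estrus and at 53.5 and 53.4 CPM in diestrus, and did not pass between lines. None of 6 transsulfuration genes passed in any comparison.

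Of 8 tested methyltransferase genes, 2 were higher in estrus in FL1, among them Nnmt, which methylates nicotinamide (1.22 ± 0.35, at 0.852 to 3.96 CPM). Hnmt, which inactivates histamine (-0.90 ± 0.18), and the DNA methyltransferase Dnmt3a (-0.36 ± 0.10) were lower. Dnmt3a was also higher in FL1 than in ctrl in diestrus, at 95.1 to 120 CPM against 73.0 to 89.7 CPM (0.38 ± 0.09, adjusted p = 0.0252, kept in 5 of 10 fits without 1 library). Of 9 polyamine genes, Odc1, the first enzyme of the pathway, was higher in FL1 in estrus (0.77 ± 0.20), and its inhibitor of degradation Azin1 (-0.39 ± 0.07) and the spermine synthase Sms (-0.50 ± 0.16) were lower. Hnmt, Odc1 and Azin1 kept their call with any 1 library left out, and Nnmt, Dnmt3a and Sms in 5, 5 and 2 of 10 fits.

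Among 17 genes of ATF4 and its amino acid response, which include known regulators of serine synthesis, 2 were higher in estrus in FL1, Nars (0.26 ± 0.08) and Nupr1 (0.88 ± 0.27), each kept in 3 of 10 fits without 1 library. Atf4 itself was at 83.0 to 156 CPM and did not pass. Chac1, which degrades glutathione, was lower in FL1 than in ctrl in diestrus, at 1.01 to 6.69 CPM against 7.68 to 19.4 CPM, without overlap (-1.82 ± 0.39, adjusted p = 0.0154).

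Markers of several ovarian cell types moved with the stage in FL1, and some of them in ctrl as well. In whole ovaries, fewer cells of a type and less RNA per cell cannot be told apart. In estrus, 6 of 8 luteal markers were lower and 1 was higher, with summed levels of 17991 to 35421 CPM in estrus and 35929 to 46574 CPM in diestrus. All 4 tested theca markers were lower, among them Lhcgr (-2.64 ± 0.18) and Cyp17a1 (-3.83 ± 0.18). Of the endothelial markers 4 of 5 were lower, and of the blood markers 4 of 5. Of the stromal markers 5 of 7 were higher, with sums of 2544 to 3419 CPM against 1649 to 2373 CPM, and of the surface epithelial markers 3 of 4. In ctrl, Lhcgr (-1.75 ± 0.34) and Cyp17a1 (-5.02 ± 0.71) were lower in estrus as well. Of the stromal markers in ctrl 3 of 7 were higher, with sums of 2867 to 4183 CPM in estrus against 1685 to 2612 CPM. Of 8 luteal markers 1 was lower and 1 higher in ctrl, with a median log2FC of -0.67 (-0.83 in FL1). No endothelial, blood or surface epithelial marker passed between stages in ctrl. The luteal and theca lists share 3 genes.

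Granulosa markers had 1 of 8 higher and 2 lower, with sums of 2323 to 3592 CPM in estrus and 2466 to 3699 CPM in diestrus. Of 5 tested leukocyte markers none passed between stages in FL1, while Lyz2 was higher in FL1 than in ctrl in estrus (1.10 ± 0.20) and in diestrus (1.31 ± 0.30, kept in 5 of 10 fits without 1 library), and Cd68 in diestrus (0.79 ± 0.21, kept in 1 of 10). The leukocyte sum was 221 to 468 CPM in FL1 and 170 to 246 CPM in ctrl in estrus. Of 6 proliferation markers, 1 was lower in FL1 in estrus (Pcna, -0.76 ± 0.14) and 5 did not pass, with sums of 399 to 667 CPM in FL1 and 288 to 591 CPM in ctrl. Of the other markers between lines, Upk3b of the surface epithelium was higher in FL1 in estrus (0.69 ± 0.17, kept in 2 of 10). In diestrus Foxl2 of granulosa cells (0.53 ± 0.11), Egfl7 of endothelium (0.65 ± 0.11), Lhcgr of luteal and theca cells (1.43 ± 0.32, kept in 7 of 10) and Hba-a2 of blood (4.77 ± 0.66) were higher in FL1. Hba-a2 has a near-identical copy, and its count is uncertain. Between stages in FL1, 1 of 9 oocyte markers (Bmp15), 1 of 4 tested fat markers (Fabp4) and 1 of 6 proliferation markers (Cdk1) were higher in estrus and none lower. The part of these cell types in the values of the 10 enzymes was not tested.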

How the data were processed

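Ovaries of 20 mice were measured, 5 for each line and stage, with replicates that were separate animals. Libraries were made by the authors with the QuantSeq 3′ mRNA-Seq FWD kit, which reads 1 end of each transcript, and reads were trimmed, aligned with STAR to GRCm38 and assigned to Ensembl genes. What the authors deposited are raw counts per gene for each library. The counting tool and its strand setting are not given in the sources used here. Whether reads of overlapping genes on opposite strands were kept apart is therefore not known. Line and stage came from the titles and characteristics, because the source name names FL1 for ctrl libraries too.

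Counts were tested with edgeR 4.0.16 (quasi-likelihood test, TMM, filterByExpr with a minimum count of 10) in R 4.3.3. Adjustment for multiple tests followed Benjamini and Hochberg over all tested genes, and an adjusted p of at most 0.05 counted as passed. Line was compared within each stage and stage within each line on 10 libraries, and the interaction on 20. The script was checked on simulated data. Intervals are log2FC ± 1.96 SE. Symbols came from GENCODE M21, which held 54809 of the genes. Alternatives were RLE normalization, other filters, DESeq2 1.42.0, limma-voom 3.58.1, a replicate block, 1 fit of all libraries, leaving out each library, and adding the copies of Phgdh, chosen after seeing the data. The members and lists were chosen with earlier results of these data known. Some genes are not reported here. The rule for named genes took all members, up to 4 genes that passed in each pathway or marker list, neighbours that passed, and the 3 genes closest in pattern. Markers are mostly given as counts, and those named, like the overlapping genes, were picked with their values seen.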

Additional observations from a re-analysis of the deposited data

Results flagged for a closer look

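Of 40 groups of 5 libraries (10 enzymes in 4 groups), 3 had a library whose gap to the nearest of the others, divided by the range, was above Dixon's critical value of 0.710, which chance gives in about 1 of 20 groups. Psat1 was at 22.1 CPM in replicate 5 of ctrl in diestrus and at 12.4 to 15.0 CPM in the other 4. Mat2a was at 339.8 CPM in replicate 5 of ctrl in estrus and at 219 to 252 CPM in the other 4, and that library also stood apart over all genes. Ahcy was at 3.00 CPM (20 counts) in replicate 3 of ctrl in diestrus and at 9.80 to 12.5 CPM in the other 4. All 3 libraries were ctrl, and the cause was not tested.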

How the results depend on the processing

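Between lines in estrus, 311 genes passed in the reported fit, 477 without the filter on low counts, 670 with DESeq2, 493 in 1 fit of all libraries and 175 to 418 with 1 library left out. In diestrus 545 passed, with 846 without the filter, 891 with DESeq2 and 349 to 594 with 1 library left out. Between stages, 380 passed in ctrl (771 with DESeq2, 653 with limma-voom, 878 in 1 fit, 176 to 516 with 1 left out, the 516 without replicate 5 of ctrl in estrus) and 2123 in FL1 (1582 to 2316 with 1 left out). The interaction called 8 (17 without the filter, 148 with DESeq2, 31 with limma-voom, 0 to 15 with 1 left out).

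Of the 10 enzymes, 2 passed between lines in estrus (1 under the strict filter or the replicate block, 1 to 2 with 1 left out) and 1 in diestrus (0 in 1 fit of all libraries, 0 to 1 with 1 left out). Between stages, 0 passed in ctrl (1 each with DESeq2, limma-voom and 1 fit, 0 to 1 with 1 left out) and 5 in FL1 (3 each without the filter, under the replicate block and in 1 fit, 2 to 5 with 1 left out). The interaction called 0 with any 1 left out. The counts between lines were fixed by the choice of the genes, and nothing is read from them.

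Values near 0 changed sign. The stage difference in ctrl became 0.035 for Phgdh with copies added, 0.026 and 0.0011 for Psph with limma-voom and under the block, and -0.053 for Mat2a with limma-voom. That of Mthfd1 in FL1 became -0.031 and its interaction -0.076 with limma-voom. With 1 library left out, the stage difference in ctrl ran from -0.20 to 0.064 for Psph, -0.26 to 0.064 for Mthfd2, -0.051 to 0.037 for Mthfd1, -0.68 to 0.058 for Phgdh and -0.096 to 0.089 for Mat2a. That of Mthfd1 in FL1 ran from -0.036 to 0.082, and the interaction from -0.046 to 0.071 for Mthfd1 and -0.25 to 0.089 for Ahcy. The cause was not tested.

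Same-numbered libraries are different animals, and their deviations correlated between -0.11 and 0.14, so the numbers do not pair them. With the replicate block, 230 and 498 genes passed between lines in estrus and diestrus, 259 and 2020 between stages in ctrl and FL1, and 12 in the interaction. Depth limits Phgdh most: 1 library held 2 counts, under the 3 that set its floor.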
